A study of Mus musculus with 2 samples.

Results

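The Hox genes of the mouse adrenal gland were described from the deposited gene tables. Members were the protein-coding genes whose symbol is Hoxa, Hoxb, Hoxc or Hoxd followed by a paralog number. The rule found 39 genes among 21901 protein-coding genes and 55536 annotated genes, 11 in the Hoxa cluster, 10 in Hoxb, 9 in Hoxc and 9 in Hoxd. The rule used names only and no measured value, but it was set with earlier results of these data known.

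Total RNA from 2 adrenal gland samples of adult male mice aged 8 to 10 months was sequenced after ribosomal RNA reduction, from 300 ng of RNA with ERCC spike-ins. The animals came from a cross of 5xFAD with CAST. 5xFAD mice carry mutant human amyloid precursor and presenilin transgenes under the neuronal Thy1 promoter, and CAST is a wild-derived strain. Both libraries belong to this 1 group, biological replicates 1 and 2, so no other genotype or tissue was compared and no test between groups was possible. The labels give each library its own biosample and 1 shared donor entry, so the spread between them may be technical. Replicate 1 held 29204618 counts on annotated genes and replicate 2 held 26322446.

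Hox genes encode homeodomain transcription factors that set position along the head to tail axis of the embryo. In mammals they lie in 4 clusters, and genes with the same paralog number descend from 1 ancestral gene. Low numbers act nearer the head and high numbers nearer the tail, and many adult tissues retain the combination of the level where they formed. Hox proteins bind DNA together with Pbx and Meis cofactors. Polycomb and Trithorax proteins keep the clusters silent or active after the embryonic signals have gone. The adrenal cortex arises from trunk mesoderm beside the kidney, and the medulla from trunk neural crest.

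Paralog 9 is the highest number with a detected gene. The homeoboxes of Hoxb9 and Hoxc9 are shown because reads of these close relatives must be told apart before their levels are compared. Each is the 180 bases that encode the DNA-binding homeodomain, 5′ to 3′ in the sense of the gene, from GENCODE M21 on mm10. Capitals mark the bases that differ from Hoxb9. The Hoxb9 homeobox lies in exon 2 at chr11:96274659-96274838 and that of Hoxc9 in exon 3 at chr15:102983930-102984109, both on the plus strand.
Hoxb9: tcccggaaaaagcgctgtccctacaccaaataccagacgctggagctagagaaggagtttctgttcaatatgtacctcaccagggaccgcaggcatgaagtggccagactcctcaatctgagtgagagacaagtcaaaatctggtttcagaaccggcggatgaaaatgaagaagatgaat
Hoxc9: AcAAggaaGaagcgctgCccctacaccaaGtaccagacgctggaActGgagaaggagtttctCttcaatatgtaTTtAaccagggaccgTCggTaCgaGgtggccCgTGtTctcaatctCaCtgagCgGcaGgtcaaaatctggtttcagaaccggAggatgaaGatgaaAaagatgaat

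Across these 180 bases Hoxc9 differed from Hoxb9 at 29, which gives an identity of 83.9%. The longest run without a difference was 24 bases. Hoxd9, not shown, is slightly closer to Hoxb9, with 28 differences and an identity of 84.4%. Its longest run without a difference was 40 bases, longer than a 31-base word. Of all 31-base words in the Hoxb9 transcripts, 0.508% occur in another Hox gene, and the share was 0.170% for Hoxc9 and 0.570% for Hoxd9. Few positions of these transcripts therefore hold a 31-base word that could come from another member. Counted over all other annotated genes, the share of words found elsewhere was 0.782% for Hoxb9 and 1.92% for Hoxc9. By that count it was 61.1% for Hoxd3 and 49.1% for Hoxd4. Hoxd3 and Hoxd4 overlap each other, and both overlap Gm28230, an annotated read-through transcript of the pair, so the split of reads among them is uncertain.

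Detection here means that both libraries reached 1 TPM, a level scaled for transcript length and library size. By this limit 19 of the 39 Hox genes were detected, 48.7%, against 56.4% of all protein-coding genes. At the other end, 11 members had 0 counts in both libraries, where 22% of protein-coding genes did. In bulk tissue fewer cells of a type and less RNA per cell cannot be told apart. Summed over the 39 members the level was 301 TPM in replicate 1 and 263 TPM in replicate 2. Detected and undetected genes fell on different stretches of the clusters, except for Hoxa4, which lay undetected between Hoxa3 and Hoxa5. Of the 15 central members, paralogs 4 to 8, 14 were detected. Of the 8 anterior members, paralogs 1 to 3, 3 were detected, and of the 16 posterior members, paralogs 9 to 13, 2 were.

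**Figure D1:**
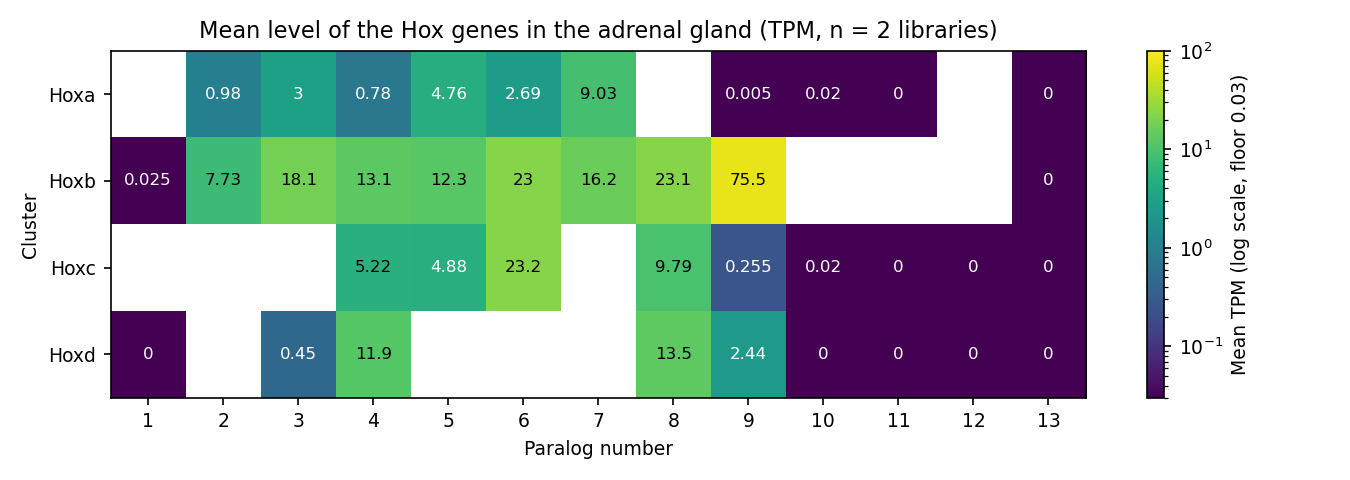
Mean TPM over 2 libraries for the Hox genes, by cluster (rows) and paralog number (columns), with color on a log scale and white where no value is given. Hoxb9 holds the highest value, and paralogs 10 to 13 sum to 0.0400 TPM over all 4 clusters.

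Hoxb9 had the highest level of the family. It was measured at 81.3 TPM in replicate 1, from 5601 counts, and 69.8 TPM in replicate 2, from 4306 counts, a mean of 75.5 ± 8.12 (SD, n = 2). Hoxb9 (ENSMUSG00000020875.9) lies at chr11:96271457-96276595 on the plus strand and takes part in patterning the thorax. Its level was 3.27 ± 0.140 times that of Hoxc6, the next member, with the same order in both libraries. Among 21901 protein-coding genes Hoxb9 ranked 706th by mean TPM.

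The other paralog 9 genes, close relatives in sequence, were far lower. Hoxd9 was measured at 2.98 TPM in replicate 1 and 1.90 TPM in replicate 2, so Hoxb9 was 27.3-fold and 36.7-fold higher. Hoxc9 was measured at 0.320 TPM from 21 counts and 0.190 TPM from 11 counts, under the limit in both libraries. Hoxa9 had 0 counts in replicate 1 and 1 count in replicate 2. The libraries of Hoxb9 lay above every library of the other paralog 9 genes, and Hoxd9 was the only other one detected.

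No gene of paralogs 10 to 13 was detected. The 12 members of these groups together had 2 counts in replicate 1 and 1 count in replicate 2. Hoxc10 gave the 2 counts and Hoxa10 the single one. The other 10, Hoxa11, Hoxa13, Hoxb13, Hoxc11, Hoxc12, Hoxc13, Hoxd10, Hoxd11, Hoxd12 and Hoxd13, were at 0 in both libraries of the gene table. A second quantifier, a further deposited table made directly from the reads, listed Hoxd11 at 0.0701 and 0.00980 TPM and Hoxc13 at 0 and 0.0132 TPM, and the other 8 at 0. These genes pattern the lumbar and sacral trunk, the distal limb and the urogenital tract. Hoxd1 of the anterior groups was at 0 in both tables. For the 11 members at 0 in the gene table, a count of 0 allows up to 3 counts, which stands for 0.0430 to 0.113 TPM in replicate 1 and 0.0482 to 0.126 TPM in replicate 2. Against that floor per library Hoxb9 was at least 554-fold higher than each of them in the gene table. The deposited TPM interval of Hoxa13 reached above its floor, to 0.457 TPM in replicate 1 and 0.514 TPM in replicate 2. The bound of 554-fold therefore holds against the floor only. The replicate 1 value of Hoxd11 in the second quantifier lay above its own floor of 0.0490 TPM.

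The last detected gene and the next gene toward paralog 13 stood close together in 3 of the clusters. In Hoxa, Hoxa7 was measured at 9.06 and 9 TPM, and Hoxa9, whose 3′ end lies 1.25 kb from Hoxa7, had 0 counts and 1 count. In Hoxc, Hoxc8 was measured at 10.7 and 8.85 TPM and exceeded Hoxc9, 5.51 kb away, by 33.6-fold in replicate 1 and 46.6-fold in replicate 2. In the second quantifier the same folds were 24.3 and 29.1, so the size of this step is uncertain. In Hoxd, Hoxd9 was at least 27.8-fold higher than Hoxd10, which lies 2.62 kb away at 0 counts. In Hoxb the next Hox gene beyond Hoxb9 is Hoxb13, 74.0 kb away, and Hoxb9 was at least 1253-fold higher. The boundary thus fell between paralogs 7 and 9 in Hoxa, 8 and 9 in Hoxc, 9 and 10 in Hoxd, and beyond 9 in Hoxb.

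**Figure D2:**
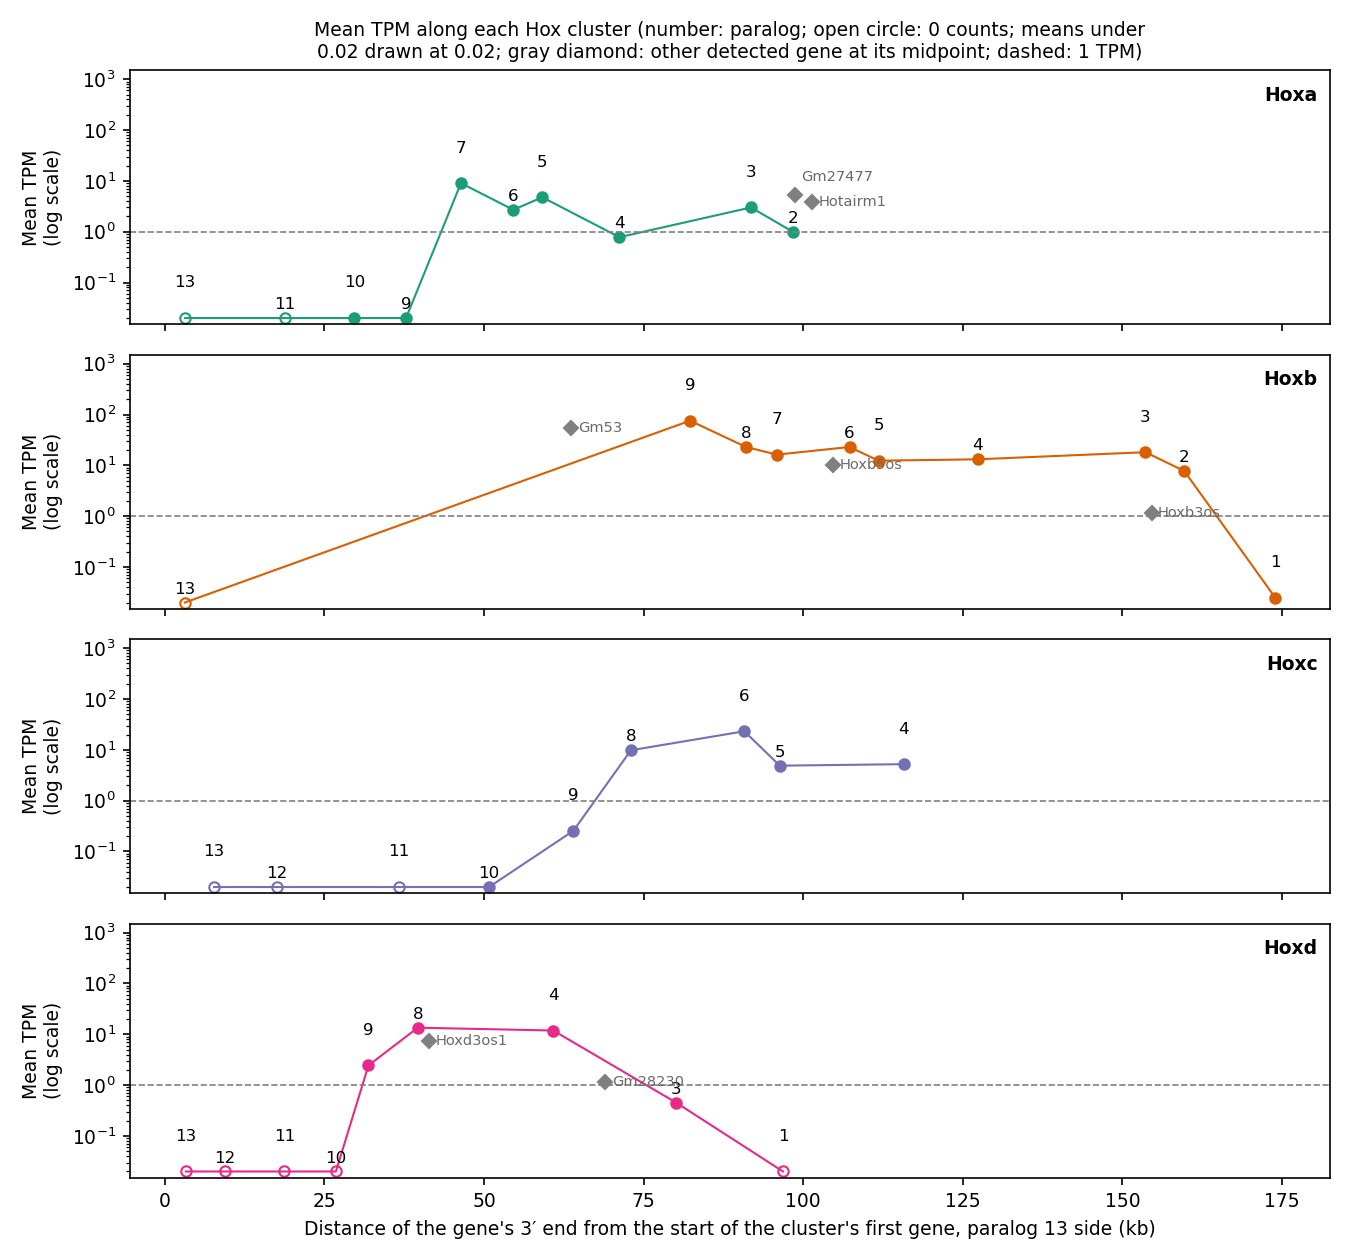
Mean TPM (log scale) of the Hox genes against the distance in kb along its cluster from the paralog 13 end, with 1 panel per cluster and gray diamonds for the other detected genes. In each panel the genes on the paralog 13 side are at or near 0 and the first detected gene rises past the dashed line at 1 TPM.

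The central groups held the next highest genes. Hoxc6 was measured at 25.6 and 20.7 TPM in replicates 1 and 2, Hoxb6 at 25.3 and 20.7 TPM, and Hoxb8 at 25.2 and 20.9 TPM. These 3 genes, with roles in the thoracic skeleton, did not keep 1 order in both libraries and cannot be ranked among themselves. Hoxb7 was measured at 16.3 and 16.2 TPM.

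Hoxd8 was measured at 12.3 TPM in replicate 1 and 14.7 TPM in replicate 2, Hoxb4 at 14.7 and 11.6 TPM, and Hoxb5 at 12.4 and 12.3 TPM. The order of these 3 also changed between the libraries. Hoxd4 followed at 12.1 and 11.6 TPM, and the ratio of Hoxb4 to Hoxd4, both genes of the cervical region, was 1.22 in replicate 1 and 0.997 in replicate 2. Hoxc8 and Hoxa7, measured above, came next, and their libraries overlapped.

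The lower central genes were Hoxc4 at 5.81 and 4.63 TPM, Hoxc5 at 5.18 and 4.57 TPM, and Hoxa5 at 5.05 and 4.47 TPM. Hoxa5 is known for its part in lung and rib development. Hoxa6 was measured at 3.07 and 2.32 TPM, so Hoxb6 was 8.56 ± 0.481 times and Hoxc6 8.64 ± 0.410 times as high. Hoxa4 was the only central gene not detected, at 0.960 and 0.600 TPM, and Hoxb4 exceeded it 15.3-fold and 19.3-fold.

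In the anterior groups, which pattern the hindbrain and neck, Hoxb3 was highest at 19.9 and 16.3 TPM. Hoxb2, which acts in the hindbrain, was measured at 7.45 and 8.01 TPM and was among the few members with the higher TPM in replicate 2. Hoxa3, needed for the thymus and parathyroid, was measured at 3.17 and 2.83 TPM. Hoxa2 fell on the limit, at 1.10 TPM in replicate 1 and 0.860 TPM in replicate 2, and was not detected by the rule. Hoxd3 was measured at 0.620 and 0.280 TPM. Hoxb1 had 1 count and 0 counts, so the anterior limit in Hoxb fell between Hoxb1 and Hoxb2.

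**Figure D3:**
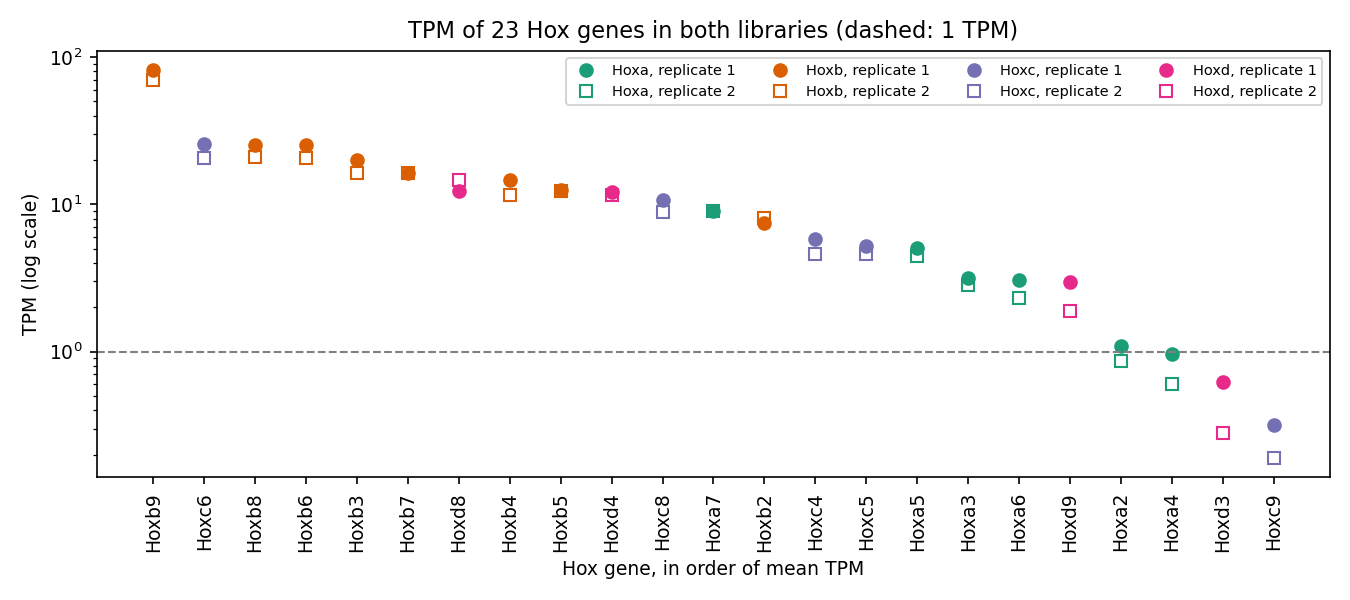
TPM (log scale) of 23 Hox genes with the highest means, with a filled circle for replicate 1, an open square for replicate 2 and color for the cluster. Hoxb9 stands apart at the top, and Hoxa2 and Hoxa4 straddle or sit just under the dashed 1 TPM line.

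By cluster, Hoxb held most of the family's level. The Hoxb genes summed to 203 TPM in replicate 1 and 176 TPM in replicate 2, which was 67.0% ± 0.402 of all Hox TPM (SD, n = 2). Hoxc held 15.3% ± 0.751, Hoxd 10.1% ± 1.06 and Hoxa 7.63% ± 0.0885. In Hoxb 8 of 10 genes were detected, in Hoxc 4 of 9, in Hoxa 4 of 11 and in Hoxd 3 of 9. The Hoxa cluster has the most genes and the lowest sum, at 22.8 and 20.3 TPM. Its 4 detected genes were all below 10 TPM in both libraries. Without Hoxb9 the 38 other members summed to 220 and 194 TPM, 73.0% and 73.5% of the whole.

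By paralog number, group 9 held 27.7% ± 0.565 of the summed TPM, nearly all of it from Hoxb9. Group 6 followed with 17.3% ± 0.941 and group 8 with 16.5% ± 0.583. These 2 shares lay within 2 percentage points of each other and changed order between the libraries. Group 4 held 11% ± 0.242, group 7 held 8.99% ± 0.811, group 5 held 7.80% ± 0.393, group 3 held 7.63% ± 0.350 and group 2 held 3.10% ± 0.373. The central section together held 61.5% ± 0.604, the posterior 27.7% ± 0.564 and the anterior 10.8% ± 0.0407. 

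The annotation lists 87 transcripts of the 39 genes, 63 coding and 24 of other classes. Transcripts annotated as protein coding held 92.3% ± 0.0536 of the Hox counts, and 88.3% ± 0.391 of the Hox TPM. Over all protein-coding genes these shares were 89.9% and 82.3%. Among the 19 detected members 11 had over 98% of their counts on coding transcripts in both libraries, Hoxb9 among them. Of these 11 only Hoxa7 and Hoxc5 have an annotated transcript of another class. For the rest, Hoxb9 included, the annotation fixed the share before any read was counted. The other 8 were Hoxa3, Hoxb2, Hoxb3, Hoxb5, Hoxb7, Hoxc6, Hoxc8 and Hoxd4.

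Hoxb5 had the lowest coding share of counts among the detected members. Its retained-intron transcript Hoxb5-202 was at 6.62 and 5.95 TPM, 53.3% and 48.6% of the gene, and the coding Hoxb5-201 was at 5.81 and 6.29 TPM. The second quantifier had Hoxb5-202 at 7.35 and 6.59 TPM and Hoxb5-201 at 3.38 and 3.70 TPM, so the split of Hoxb5 is uncertain. Hoxc6 split into the coding Hoxc6-201 at 13.5 and 11.2 TPM and the processed transcripts Hoxc6-202, at 7.31 and 6.14 TPM, and Hoxc6-203, at 4.78 and 3.44 TPM. On coding transcripts alone Hoxc6 would therefore fall below Hoxb6 and Hoxb8, whose levels are all coding. It would also fall below the coding levels of Hoxb3, Hoxb4 and Hoxb7 in both libraries. Hoxd4 carried 48.3% and 48.1% of its TPM on the processed transcript Hoxd4-203, and Hoxc8 23.8% and 22.2% on the retained intron of Hoxc8-202. In Hoxa3 coding transcripts held 43.5% and 48.1% of the TPM. Reads that cover an intron can also come from unprocessed RNA, and their part in these shares was not tested.

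**Figure D4:**
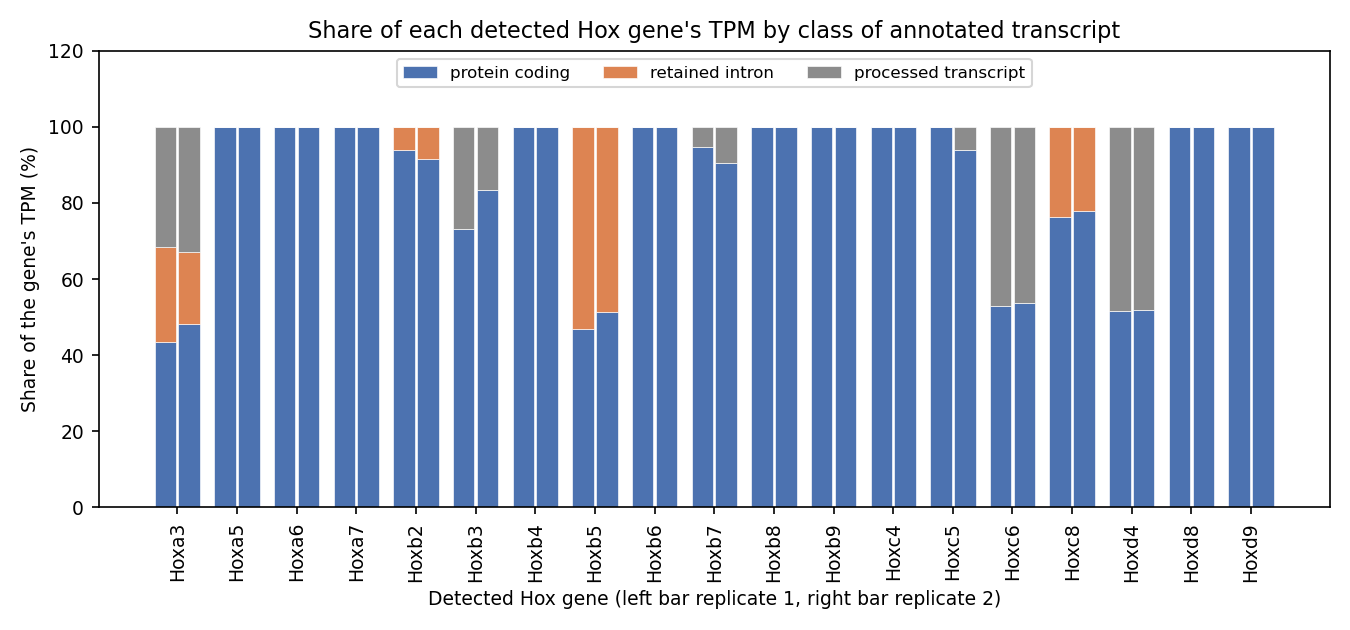
Share of each detected Hox gene's TPM by class of annotated transcript, in percent, with replicate 1 on the left and replicate 2 on the right of each pair. Hoxb9, Hoxb4, Hoxb6 and Hoxb8 have only coding transcripts in the annotation, and Hoxb5, Hoxa3, Hoxc6 and Hoxd4 carry large other shares.

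Within the spans of the 4 clusters the annotation holds 46 other genes, and 7 were detected in the gene table. The share over all annotated genes is not given here. These 7 were named by the same 1 TPM limit after their values were seen. Gm53, a long intergenic RNA between Hoxb13 and Hoxb9, was the highest, at 56.0 TPM in replicate 1 and 51.1 TPM in replicate 2. It lies at chr11:96251105-96264868 on the strand of the cluster and ends 6.59 kb before Hoxb9 begins. Its level exceeded that of every Hox gene but Hoxb9, which was 1.41 ± 0.0598 times as high. Only Hoxb9 and Gm53 were above 50 TPM within the clusters.

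The opposite strand held 5 of the other detected genes. Hoxb5os was measured at 11.8 and 8.75 TPM, Hoxd3os1 at 6.69 and 7.98 TPM, Hotairm1, in the anterior part of Hoxa, at 4.45 and 3.33 TPM, and Hoxb3os at 1.15 and 1.19 TPM. Gm27477, a short RNA beside Hoxa2, had only 3 and 9 counts, and was at 0 TPM in both libraries of the second quantifier. Gm28230, the read-through gene on the Hoxd strand, was measured at 1.11 and 1.18 TPM. In the second quantifier it was at 0.417 and 0.416 TPM, so neither Gm27477 nor Gm28230 reached the limit there. Hotair and Hottip, long RNAs of the posterior Hoxc and Hoxa regions, had 0 counts in both libraries. Of the listed miRNA genes Mir10a had 0 and 2 counts and the other 5 none, and short RNA is poorly kept by such libraries. Whether counting used the strand is not given in the sources used here. Hoxb3os covers 52.9% of the exonic bases of Hoxb3 and 27.3% of those of Hoxb2, so the levels of such pairs are uncertain.

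Promoters were compared for the members with an entry in the RefSeq promoter table (GRCm38.p6), which matched 22 of 39 genes with 24 starts. A promoter of 250 bases was called CpG rich at a GC content of at least 55% and an observed to expected CpG ratio of at least 0.65. That held for 4 of 10 promoters of detected members, 6 of 14 of the others and 25.3% of all 32851 in the table. Hoxb8 and Hoxd10 are shown as the highest detected member with an entry and a member at 0 counts, 5′ to 3′ up to the base before the RefSeq start, with each CG in capitals. The Hoxb8 window is chr11:96281655-96281904 and the Hoxd10 window chr2:74691641-74691890, both on the plus strand.
Hoxb8: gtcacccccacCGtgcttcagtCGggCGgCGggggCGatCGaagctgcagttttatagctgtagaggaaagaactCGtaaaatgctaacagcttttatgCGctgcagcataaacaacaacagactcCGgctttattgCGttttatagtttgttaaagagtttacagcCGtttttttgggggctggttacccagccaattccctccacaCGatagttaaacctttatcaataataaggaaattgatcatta
Hoxd10: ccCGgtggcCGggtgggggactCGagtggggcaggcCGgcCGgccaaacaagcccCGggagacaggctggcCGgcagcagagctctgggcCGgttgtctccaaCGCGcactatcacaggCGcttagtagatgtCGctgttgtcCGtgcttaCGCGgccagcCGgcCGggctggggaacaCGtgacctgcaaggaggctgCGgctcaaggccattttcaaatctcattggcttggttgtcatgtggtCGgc

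Hoxd10, at 0 counts, held 20 CG pairs in a window of 65.6% GC, and Hoxb8 held 12 in a window of 44.4% GC. The observed to expected ratio went the other way, at 0.755 for Hoxd10 and 0.974 for Hoxb8. Hoxd10 was called CpG rich, and Hoxb8 was not because of its GC content. The share of CpG-rich windows was 40% among the detected members and 42.9% among the others.

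The libraries differed in one direction over most of the family. The ratio of replicate 2 to replicate 1, on the log2 scale from scaled counts, was computed for the 22 members whose counts averaged 20 or more. It was below 0 for 20 of the 22, 90.9%, against 51.4% of all 16383 genes with such counts. The median was -0.26 over the members and -0.01 over all genes. By cluster the log2 ratio of summed counts was -0.19 for Hoxa, -0.22 for Hoxb, -0.31 for Hoxc and 0.0008 for Hoxd. In Hoxd 3 of 4 members were lower in replicate 2 and 1 was higher, and their summed counts did not shift. No member was 2-fold apart, which 1.68% of all genes were. With 1 group the 2 libraries allow no test of this difference.

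The 3 lowest ratios belonged to Hoxd3, at -0.80 ± 0.41 (counting SE), Hoxa4, at -0.68 ± 0.37, and Hoxd9, at -0.67 ± 0.18. The 3 highest belonged to Hoxd8, at 0.23 ± 0.07, Hoxb2, at 0.11 ± 0.11, and Hoxa7, at -0.06 ± 0.10. Hoxd8 and Hoxd9 are neighbors, and their ratios lay on opposite sides of 0. Hoxb9, with the most counts, had a ratio of -0.24 ± 0.03. Ratios were at least 2 counting SE from 0 for 11 of the 22 members, against 29.9% of all genes. The deposited TPM intervals of the libraries did not overlap for 8 members, Hoxb3, Hoxb4, Hoxb6, Hoxb8, Hoxb9, Hoxc6, Hoxc8 and Hoxd9, and for 9.53% of all genes.

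Markers of another cell type were lower in the same library. All 8 white adipocyte markers were lower in replicate 2, and they summed to 757 TPM in replicate 1 and 468 TPM in replicate 2, with a median log2 ratio of -0.77. Leptin (Lep) had the largest difference at -1.48 ± 0.06. All 8 markers were detected in both libraries and none was at 0. All 8 medulla markers were higher in replicate 2, with sums of 2044 and 2358 TPM, and cortex markers summed to 17445 and 18399 TPM. Of the cortex markers 5 were higher and 3 lower, with a median log2 ratio of 0.03. Endothelial markers were lower in 6 of 8 cases (median -0.04) and macrophage markers in 4 of 7 (-0.17). Smooth muscle markers were lower in 3 of 5 cases (-0.11), Schwann markers in 3 of 5 (-0.06), and capsule and fibroblast markers in 4 of 10 (0.13). Brown adipocyte markers were lower in replicate 2 in 4 of 5 cases with enough counts (median -0.65), and kidney markers in 3 of 3 (-0.76). The part of such cells in the lower Hox ratios was not tested.

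**Figure D5:**
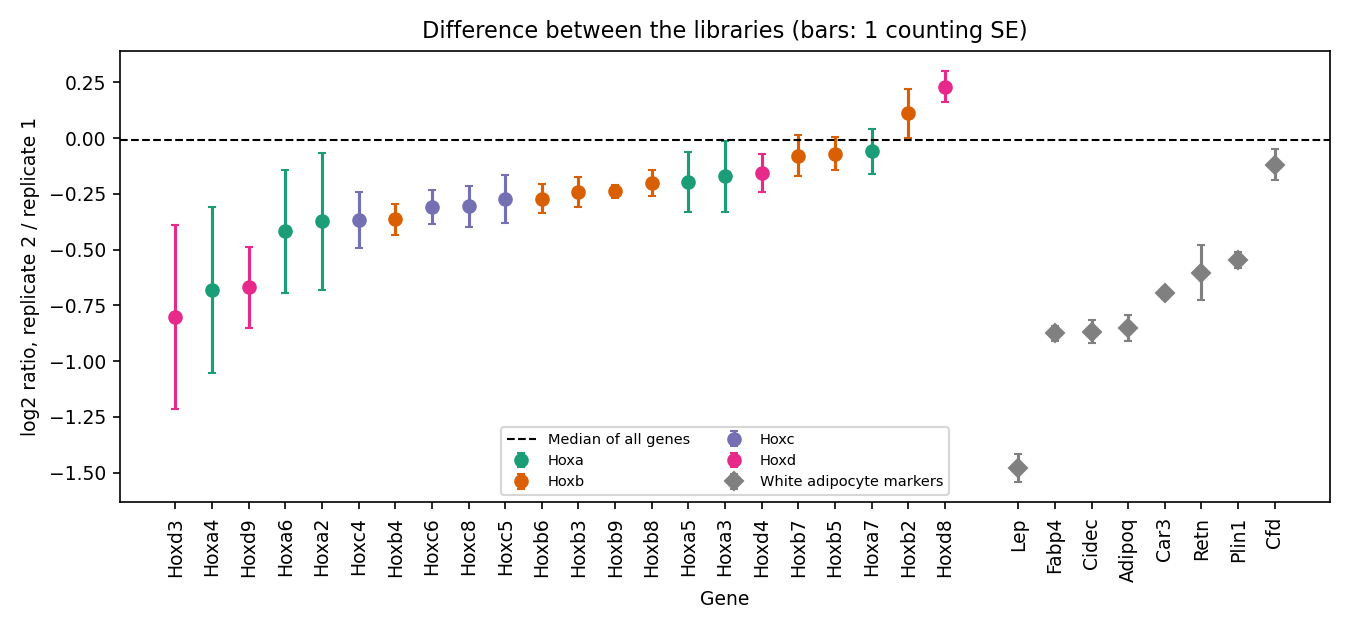
log2 ratio of replicate 2 to replicate 1 for the 22 Hox genes that averaged 20 counts or more and for 8 white adipocyte markers, with bars of 1 counting SE and a dashed line at the median of all genes. Of the Hox genes 20 lie below 0 and all the adipocyte markers do.

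The second quantifier detected 19 members, and all 19 were those of the gene table. Of the 19 members whose mean reached 1 TPM in either table, none was over 2-fold apart between the tables, with 1.98% so among protein-coding genes. The log2 difference ranged from -0.25 for Hoxb7 to 0.35 for Hoxc5. Among low members Hoxb1 was at 0.298 and 0.412 TPM there, against 0.0500 and 0 TPM in the gene table. Transcripts of a gene could differ more. Hoxb6-201 was at 11 and 7.66 TPM in the transcript table and at 1.01 and 0 TPM in the second quantifier, and Hoxb6-202 at 14.2 and 13 TPM against 21.8 and 18.4 TPM, so the split of Hoxb6 is uncertain.

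The cofactors that Hox proteins bind DNA with were mostly detected, 8 of 9 listed, against 56.4% of all protein-coding genes. Meis2 was highest at 110 and 104 TPM, above Hoxb9 in both libraries. Pbx3 was measured at 52.0 and 52.7 TPM. Meis1 followed at 22.0 and 23.8 TPM and Pbx2 at 18.0 and 17.8 TPM. Pknox2, at 0.970 and 1.32 TPM, was not detected. Of the 9 cofactors 5 were lower and 4 higher in replicate 2, with a median log2 ratio of -0.03.

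The labelled tissue was checked against marker lists. All 8 cortex markers and all 8 medulla markers were detected. Of the kidney markers 2 of 11 were, Aqp1 at 17.7 and 15.2 TPM, a gene that endothelium also expresses, and Aqp2 at 1.69 and 1.01 TPM. The kidney markers Slc12a1 and Kap had 0 counts in both libraries, and the list summed to 20.1 and 16.6 TPM. Skeletal muscle markers were detected in 0 of 6 cases, and they summed to 1.95 and 2.07 TPM.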

How the data were processed

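The authors deposited, for both libraries, gene tables of expected counts, FPKM and TPM. They derive from alignments to the mm10 transcriptome under the GENCODE M21 annotation, as the notes deposited with each library state. Matching transcript tables hold counts, TPM and the percent of a gene's level that a transcript takes, per the file headers. Another deposited table quantified transcripts straight from the sequence files, in estimated counts and TPM, and is the second quantifier here. The bounds of the TPM intervals, a signal in TPM units, are the authors', and their level is not given in the sources used here. Aligner and quantifier names are not given either. TPM was scaled over all 81881 entries of the table, of which 26345 are not annotated genes. These held 0.469% and 0.504% of the counts and stayed out of library sizes. Reads of CAST alleles were counted against mm10, and the effect on the values was not analysed here.

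Expected counts were rounded and scaled by TMM from edgeR 4.0.16 in R 4.3.3, with DESeq2 1.42.0 as an alternative. Ratios used a prior count of 0.5. Their SE is Poisson and covers counting error only. The log2 difference between quantifiers used a pseudocount of 0.1 TPM. The floor was 3 counts per library. Python 3.11.15, numpy 2.4.6, pandas 2.3.3 and matplotlib 3.10.9 were used. The ratio was checked on simulated counts. Members and lists were chosen with earlier results of these data known. Detected members are given with values in both libraries, the others by counts and ranges, with the 3 highest and 3 lowest ratios. A few genes and sequences that these rules take are not reported here. Alternatives were other TPM limits, FPKM, the second quantifier, TPM over protein-coding genes, other scalings and count limits, and leaving out each library.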

Additional observations from a re-analysis of the deposited data

How the results depend on the processing

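Of 160 alternatives 138 kept the value within the spread between the libraries or, for counts of genes, within 1.5 times, and none reversed a direction. A sum with 1 library left out is the value of the other library, so it stayed within that spread by construction. Gene counts and sums have no direction that could reverse. The number of Hox genes detected was 21 at 0.5 TPM and also 21 with TPM rescaled to protein-coding genes. In both settings all 15 central members were detected, Hoxa4 included. It was 18 detected members at 2 TPM, and 19 to 20 with 1 library left out, where Hoxa2 passed in replicate 1 alone. At 2 TPM the posterior groups kept 1 detected gene, Hoxb9. Rescaling TPM to protein-coding genes raised all sums by construction, to 58.7 TPM for Hoxa, 516 for Hoxb, 118 for Hoxc and 77.0 for Hoxd, and to 83.4, 473 and 214 TPM for the anterior, central and posterior groups. Protein-coding transcripts alone gave 30.1 TPM for Hoxc, 22.3 for Hoxd, 24.1 for the anterior and 147 for the central groups. The second quantifier gave 19.7 TPM for Hoxa, 29.7 for Hoxd and 34.1 for the anterior groups, and the cause was not tested. FPKM, a change of unit that scales all TPM of a library by 1 factor, gave a sum of 27.4 for Hoxd. The second quantifier put 90.8% of Hox counts on coding transcripts, beyond the spread between libraries around 92.3%. The second quantifier for the fold of Hoxc8 over Hoxc9 was chosen after seeing the data. The median ratio of the members lay between -0.27 and -0.22 under all alternatives. Hox-related homeobox genes detected fell to 0 at 2 TPM, kidney markers to 1 at 2 TPM and to 1 by the second quantifier, and skeletal muscle markers rose to 1 at 0.5 TPM. No paired analysis was possible because there is 1 group. With 2 libraries the depth limits members with about 20 counts or fewer, such as Hoxc9.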

Other observations

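The regulators that keep Hox clusters silent or active were detected throughout. All 25 listed Polycomb genes passed the limit in both libraries, and so did all 14 listed Trithorax genes, against 56.4% of all protein-coding genes. The Polycomb methyltransferase Ezh1 was at 17.9 TPM in replicate 1 and 18.1 TPM in replicate 2, and exceeded its paralog Ezh2, at 4.13 and 4.16 TPM, in both libraries. Of the Trithorax genes Kmt2d was highest at 37.1 and 36.6 TPM. Of the 25 Polycomb genes 14 were lower in replicate 2, with a median log2 ratio of -0.03, and of the 14 Trithorax genes 9 were, with a median of -0.05.

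Homeobox genes related to the Hox family but outside its clusters, or at their ends, were nearly all silent. Of 13 listed genes 10 had 0 counts in both libraries, against 22% of all protein-coding genes. The 10 included Evx1 and Evx2, which border the Hoxa and Hoxd clusters beyond paralog 13. Cdx1, of the family that acts upstream of Hox genes in the embryo, had 0 and 1 counts. Meox1 alone was detected, at 2.12 and 1.65 TPM, and Meox2 was at 0.400 and 0.140 TPM.

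Other cell types of the gland were represented too. Capsule and fibroblast markers were detected in 9 of 10 cases, and summed to 187 and 201 TPM. Endothelial markers were detected in 8 of 8 cases, macrophage markers in 7 of 7, smooth muscle markers in 5 of 6, and brown adipocyte and Schwann cell markers in 4 of 6 each. Of the 16 listed noncoding genes of the Hox clusters 4 were detected. No value here says which of these cells hold the Hox RNA.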
